A study of Drosophila melanogaster with 2 samples.

Results

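The core of the Hedgehog pathway was examined at 6 genes, hh, ptc, smo, ci, cos and fu, which were taken by name from the Ensembl annotation of Drosophila melanogaster. They are 6 of the 13968 protein-coding genes that this annotation places on chromosome arms. The data were ChIP-seq peaks of Ets96B, an ETS-family transcription factor that carried eGFP at its C terminus. An antibody to GFP pulled the factor down from whole prepupae aged 24 h, males and females pooled, of a single transgenic line that stably expressed the fusion. There were 2 biological replicates, numbered 2 and 3, and no second condition, and the tissue in which a peak arose cannot be told from whole animals. All peaks whose summit lay in a gene or within 5 kb either side were taken from 4 deposited lists. These were the reproducible peaks, the pooled peaks and the peaks of each replicate. All 8015 reproducible peaks stood at pooled ranks of 8015 or better by the authors' score. Of them, 7901 (98.6%) overlapped a peak in each replicate, so the name does not mean that every peak was found in both. Coordinates are those of the dm6 assembly, and printed sequences are from its RefSeq copy.

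Hedgehog signalling patterns the imaginal discs, in which Hedgehog is secreted by posterior cells and read by anterior cells across the compartment border. The ligand binds the receptor Patched, which otherwise holds the membrane protein Smoothened inactive. Smoothened acts through a complex of the kinesin-like protein Costal 2 and the kinase Fused on Cubitus interruptus, a Gli-type zinc-finger factor that is cut to a repressor without signal and acts as an activator with it. The gene ptc is itself a target of the pathway.

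Most reproducible summits at the core genes lay at ptc, the receptor gene. Of 18 reproducible summits at the 6 genes, 10 were at ptc, 4 at smo, 3 at ci, 1 at hh and 0 at cos and fu. Reproducible summits lay at 4 of the 6 genes, where 53.1% of all protein-coding genes had at least 1 by the same rule, so the share with a summit was near the background. The median was 2 summits for the 6 genes and 1 for all protein-coding genes. The windows of the 6 genes, 13450 to 25575 bp long, were all longer than the median window of 12164.5 bp. Pooled peaks lay at 5 of the 6 genes and at 69.6% of all genes. The strongest 8015 peaks of replicate 2, as many as the reproducible list holds, reached 3 of the 6 genes (54.7% of all genes), and those of replicate 3 reached 4 (53.3% of all genes). At least 10 summits, the number at ptc, were found at 101 genes, ptc included, or 0.723% of the total. With genes sorted by window length into 10 deciles, all 101 were in the longest, of 1397 genes, of which they made up 7.23%. Windows in that decile run from 24711 to 1975857 bp, and that of ptc, 25575 bp, is near the short end. At least 4, the number at smo, were found at 7.03% of all genes.

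**Figure D1:**
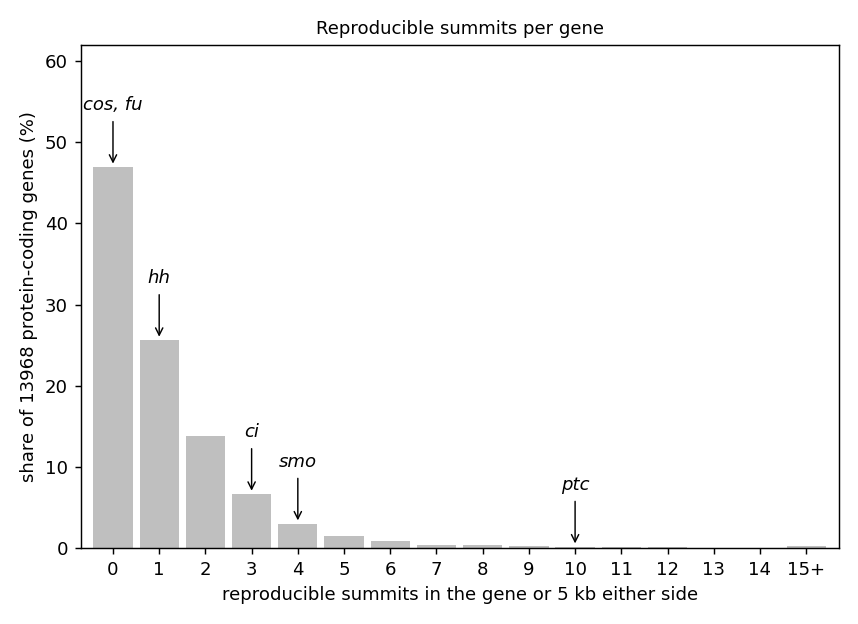
Share of the 13968 protein-coding genes (vertical axis, %) by the number of reproducible summits in the gene or 5 kb either side (horizontal axis, 15 and above joined), with arrows at the 6 genes. ptc stands at 10 summits, smo at 4, ci at 3, hh at 1, and cos and fu at 0, where 46.9% of all genes stand.

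The peaks at these genes were of middle to low strength within the reproducible list. The authors' signal value, a score that orders peaks within a list, had a median of 228 over the 18 peaks and 293 over all 8015. Only 4 of the 18 ranked in the stronger 4007, namely those at ptc with ranks 1897, 2627 and 3715 and one upstream of ci with rank 3491. The 18 peaks were 262.5 bp wide in the median, against 310 bp in the whole list. By position, 6 summits lay in introns, 5 within 500 bp of a protein-coding transcription start site (TSS), 4 in intergenic sequence and 3 in a non-coding transcript. At the start sites of the 6 genes themselves most peaks were outside the reproducible list. A reproducible summit within 500 bp of its own TSS was present for ptc alone (20.5% of all genes), while a pooled summit was present there for ptc, hh, smo, ci and fu (5 of 6, and 40.3% of all genes).

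**Figure D2:**
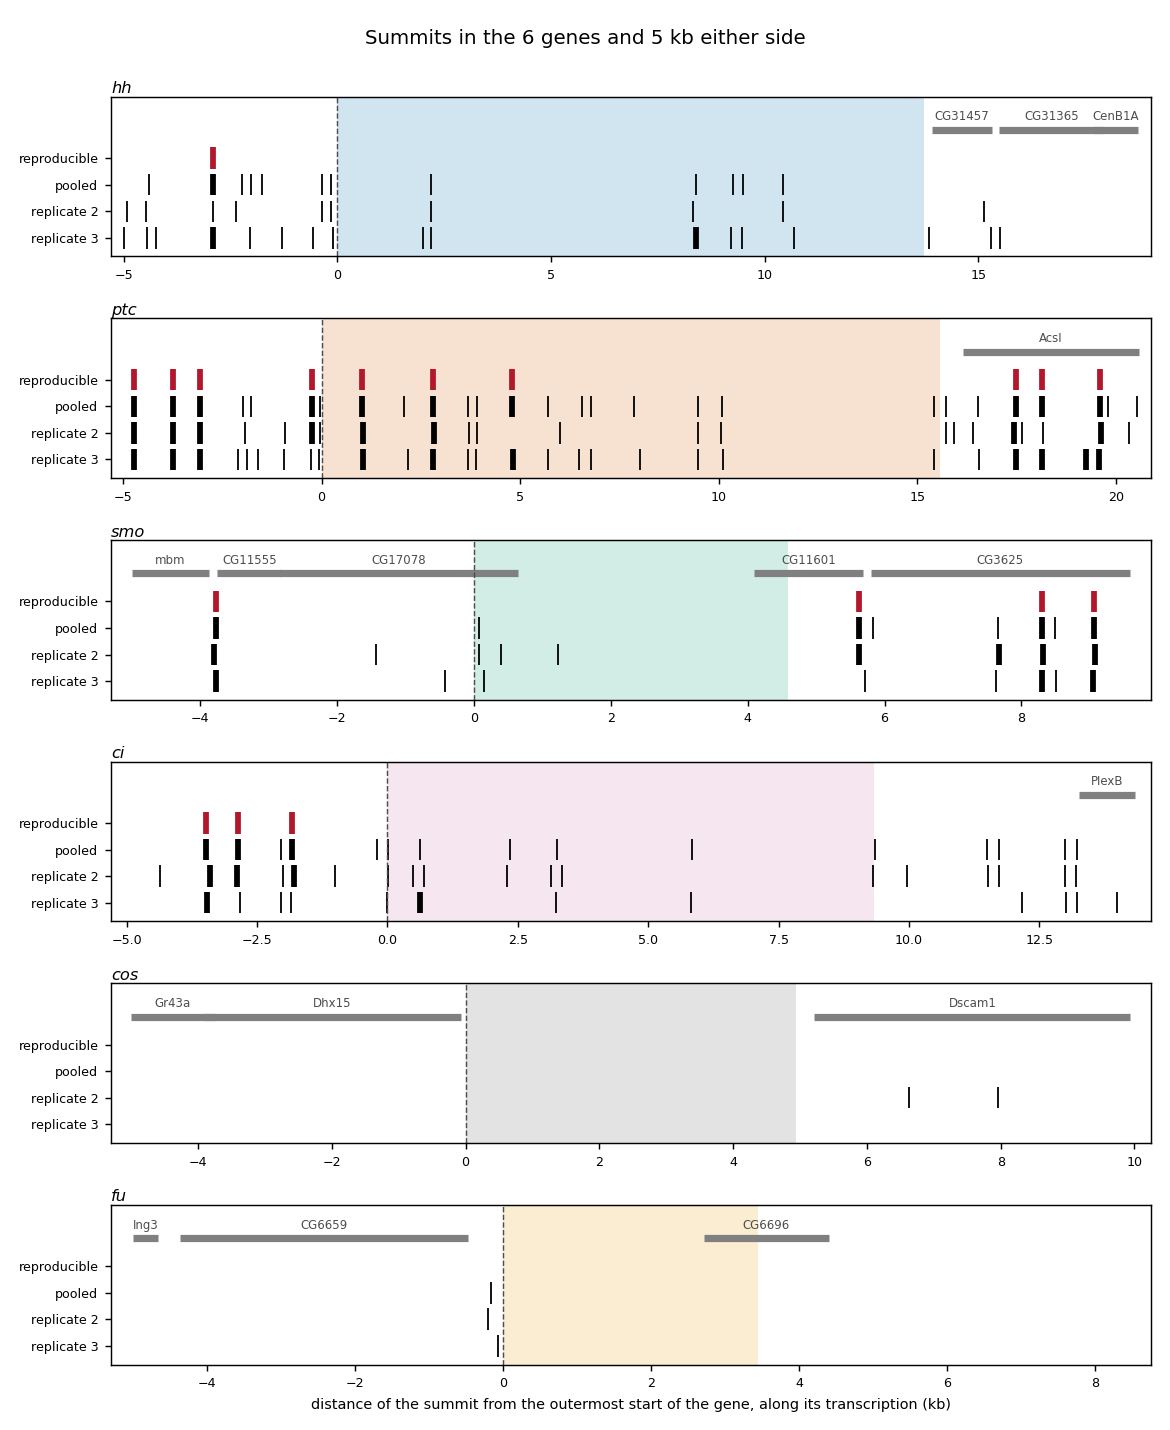
Position of every summit at hh, ptc, smo, ci, cos and fu in the 4 lists, as distance in kb from the outermost start of the gene in its direction of transcription (dashed line at 0). Coloured bands are the genes, grey bars are neighbouring protein-coding genes cut at 5 kb, and thick ticks are summits ranked 8015 or better in their list. Reproducible summits (red) cluster upstream of and in the 5' part of ptc, and further ones lie in its downstream neighbour Acsl. They lie upstream of ci and hh, and at smo outside the gene, near the start sites of its neighbours.

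The gene of the ligand, hh (FBgn0004644, chr3R:23128169-23141906, minus strand), had a single reproducible summit, 2909 bp upstream of its TSS in intergenic sequence. The peak covered positions 23144615 to 23145014 with its summit at 23144815. Its signal value was 174 and its rank 6827 of 8015. In replicate 2 the matching peak ranked 10414, with a signal value of 47.1, and in replicate 3 it ranked 6182, with 122. It was thus inside the strongest 8015 in replicate 3 and outside them in replicate 2. In the decile of window length that holds hh, 66.4% of genes had at least 1 reproducible summit. Windows in that decile run from 16472 to 24703 bp, and that of hh is 23738 bp. The gene body held 5 pooled peaks and no reproducible one. The strongest of these lay in an intron 8405 bp into the gene, with a pooled rank of 8300 and ranks of 10971 in replicate 2 and 7619 in replicate 3. The next, 2197 bp into the gene, ranked 10220 in the pooled list, 15691 in replicate 2 and 9031 in replicate 3. At the hh promoter a peak 145 bp upstream of the TSS ranked 14584 in the pooled list, 12936 in replicate 2 and 14521 in replicate 3. The upstream and intronic sites therefore ranked better in replicate 3 than in replicate 2, and the promoter site ranked alike in both. The 101 bases centred on the summits of the upstream peak (chr3R:23144765-23144865) and of the strongest intronic peak (chr3R:23133451-23133551) are shown on the plus strand because they are the best-ranked sites at the ligand gene. Capitals mark GGAA or its reverse complement TTCC, the core shared by ETS sites. The upstream window has none and the intronic window has 1.
hh upstream summit: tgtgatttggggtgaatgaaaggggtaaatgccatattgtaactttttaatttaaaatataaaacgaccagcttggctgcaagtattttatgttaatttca
hh intronic summit: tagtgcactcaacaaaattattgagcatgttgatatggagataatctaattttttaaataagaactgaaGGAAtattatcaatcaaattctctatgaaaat

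The receptor gene ptc (FBgn0003892, chr2R:8649649-8665223, plus strand) had 10 reproducible summits in its window of 25575 bp, or 3.91 per 10 kb. That density was not computed over all genes. In the decile of longest windows, in which ptc is near the short end, 74.7% of genes had at least 1 and the median was 2. Of the 10 summits, 4 lay upstream of the TSS, 3 in introns of ptc and 3 in introns of its downstream neighbour Acsl, a gene of long-chain acyl-CoA synthesis that starts within the 5 kb flank. The last 3 were 970 to 1625 bp from a TSS of Acsl, and 17492 to 19604 bp from that of ptc. The 7 others had the TSS of ptc as their nearest.

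The strongest site of all at these genes lay in an intron 2799 bp into ptc, with its summit at 8652448. Its signal value was 542 and its rank 1897, with 153 signal and rank 2834 in replicate 2, and 397 signal and rank 1550 in replicate 3. The second was 1017 bp into the gene, with a summit at 8650666 and rank 2627. Its signal value was 421, with 186 in replicate 2 and 239 in replicate 3. It ranked 2214 in replicate 2 and 2989 in replicate 3, so both intronic sites stood inside the strongest 4007 ranks of each replicate. A further intronic summit 4794 bp into the gene, at rank 6909, had no overlapping peak in replicate 2, while its match in replicate 3 ranked 4914. It was the only one of the 18 peaks not found in both replicates. In the whole reproducible list 51 peaks were not found in replicate 2.

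Upstream of ptc, 3 summits stood in intergenic sequence. Those 4725 and 3735 bp upstream had signal values of 282 and 315 and ranks of 4196 and 3715. The farther one ranked 4557 in replicate 2 and 2799 in replicate 3, and the nearer one 4124 in replicate 2 and 3502 in replicate 3. The summit 3065 bp upstream was weaker, with rank 6491, and ranked 7240 in replicate 2 and 5975 in replicate 3. The promoter summit, 246 bp upstream of the TSS at 8649403, was close to the end of the reproducible list. Its rank was 7996 of 8015 and its signal value 148, with 69.2 in replicate 2 and 71.6 in replicate 3. It ranked 7045 in replicate 2 and 10207 in replicate 3. The Acsl summits ranked 4732, 7928 and 4944. The middle one ranked 12478 in replicate 2 and 6601 in replicate 3, whereas the outer ones ranked 3659 and 3347 in replicate 2 and 5871 and 7144 in replicate 3. Of the weaker sites, the best ranked was seen in replicate 3 alone, in Acsl 1818 bp from its TSS, with rank 7406. It was followed by intronic peaks 10083 and 3693 bp into ptc, which ranked 8686 and 8868 in replicate 2, 10331 and 9725 in replicate 3, and 9220 and 9674 in the pooled list.

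At smo (FBgn0003444, chr2L:277582-282167, plus strand), which encodes the signal-transducing membrane protein, all 4 reproducible summits lay at the start sites of other genes. In its decile of window length 60.3% of genes had at least 1 reproducible summit, and 5.58% had at least 4. The summit 3771 bp upstream of smo was 25 bp from the TSS of CG11555, and ranked 4906, with 5808 in replicate 2 and 4532 in replicate 3. The others lay downstream of smo. That at CG11601, 19 bp from its TSS, ranked 7741, with 5885 in replicate 2 and 9642 in replicate 3. A pair lay at start sites of CG3625, 151 and 116 bp from the nearest, with ranks 5528 and 4690. Those ranked 5138 and 3926 in replicate 2, and 5957 and 5311 in replicate 3. None of the 4 fell in the smo gene, and none had the TSS of smo as its nearest. The promoter of smo held a pooled peak with its summit 74 bp inside the gene, rank 10906 and signal value 104. The replicates differed there, with rank 19337 and 24.0 signal in replicate 2, and rank 8842 and 83.7 signal in replicate 3. The first bases of smo also lie in CG17078, a gene of the opposite strand that overlaps it. Another pooled peak, 479 bp from a TSS of CG3625, ranked 10276, with 7478 in replicate 2 and 15229 in replicate 3. The next peak outside the reproducible list was a pooled peak 145 bp from the TSS of CG11601, at rank 19696. It overlapped the reproducible peak at CG11601 and matched the same peaks of both replicates. The window of the strongest summit at this locus, by CG3625, is printed as an example of the neighbouring sites (chr2L:286597-286697, plus strand), and it holds no ETS core.
CG3625 summit: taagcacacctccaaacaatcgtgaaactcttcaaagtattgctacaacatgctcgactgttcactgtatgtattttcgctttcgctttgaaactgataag

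The transcription factor gene ci (FBgn0004859, chr4:47710-57041, minus strand) had 3 reproducible summits, which all lay upstream of its TSS and inside asRNA:CR43957, a non-coding RNA of the opposite strand. They made up 3 of the 24 reproducible summits on chromosome 4. At least 3 summits were present at 13.7% of all protein-coding genes and at 20.3% of those in the same decile of window length. The strongest lay 3475 bp upstream, with a summit at 60516 and rank 3491. Its signal value was 332, with 116 in replicate 2 and 227 in replicate 3. It ranked 3949 in replicate 2 and 3162 in replicate 3. The summit 1829 bp upstream ranked 6352, with 4498 in replicate 2 and 8536 in replicate 3. The summit 2858 bp upstream ranked 7826, with 4251 in replicate 2 and 10620 in replicate 3, a ratio of 2.50, the largest among the 17 of the 18 peaks that were found in both. So the farthest site stood alike in both replicates, while the nearer ones were stronger in replicate 2. On the whole chromosome, 8 of the 20 peaks found in both replicates ranked better in replicate 2. The start sites of ci carried peaks outside the reproducible list. That 82 bp upstream of the inner TSS had a signal value of 143 and a pooled rank of 8258, and ranked 12944 in replicate 2 and 7026 in replicate 3. That 14 bp inside the outer TSS, named after its values were seen, had a pooled rank of 15735, and ranked 15090 in replicate 2 and 24595 in replicate 3. The downstream flank reached the TSS of PlexB, a semaphorin receptor gene, where a peak 48 bp away ranked 11184 in the pooled list, 8753 in replicate 2 and 17382 in replicate 3. Next came a replicate 2 peak in lncRNA:CR44440, at rank 13905, with no match in replicate 3.

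Sequences around the 3 upstream ci summits are printed because they are the strongest sites at the factor gene and because the peak of 1 of them held the sole ETS word, described further on, in the 18 peaks. Each covers 101 bases of the plus strand of chromosome 4, so that ci itself runs from right to left. They span chr4:58820-58920, chr4:59849-59949 and chr4:60466-60566. The middle and the farthest were among the most A+T-rich windows of the list, with G+C contents of 15.8% and 18.8%. Only 0.848% and 3.32% of all 8015 windows were lower. The nearest had 30.7% G+C and 1 ETS core.
ci summit 1829 bp upstream: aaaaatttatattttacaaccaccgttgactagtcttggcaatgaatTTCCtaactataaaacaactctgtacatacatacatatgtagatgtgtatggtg
ci summit 2858 bp upstream: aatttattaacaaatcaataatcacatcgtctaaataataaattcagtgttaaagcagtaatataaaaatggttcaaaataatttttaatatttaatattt
ci summit 3475 bp upstream: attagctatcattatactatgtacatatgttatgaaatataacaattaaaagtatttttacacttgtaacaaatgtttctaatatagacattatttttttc

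The ETS word CAGGAAA lay in the nearest of these ci peaks, on the minus strand and 88 bp from the summit. It is given in capitals, as its reverse complement TTTCCTG, in 87 bases of the plus strand (chr4:58918-59004).
ci peak with ETS word: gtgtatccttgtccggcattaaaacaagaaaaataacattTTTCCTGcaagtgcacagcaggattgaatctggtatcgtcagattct

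The kinase gene fu (FBgn0001079, chrX:18657755-18661204, plus strand) had no reproducible summit, where 53.4% of genes with windows of like length had at least 1. It had a single peak in each of the pooled and replicate lists, all at its promoter. The pooled summit lay 171 bp upstream of the TSS, with a signal value of 127 and rank 9202. In replicate 2 the summit was 210 bp upstream, with rank 9549, and in replicate 3 it was 64 bp upstream, with rank 9804. The peaks of both replicates overlapped, with summits over 100 bp apart, and their ranks were close to each other, just past the 8015 that the reproducible list holds. The 101 bases around the pooled summit (chrX:18657534-18657634, plus strand) are shown because all peaks at fu lay at this promoter, and they hold no ETS core.
fu promoter summit: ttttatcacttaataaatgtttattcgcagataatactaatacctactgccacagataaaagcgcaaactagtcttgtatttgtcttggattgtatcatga

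At cos (FBgn0000352, chr2R:7382176-7387115, minus strand), the gene of the kinesin-like scaffold, no peak was found in the gene or its promoter in any list. The pooled, reproducible and replicate 3 lists had 0 peaks in its window of 14940 bp, and 24.5% of genes in its decile of window length likewise had no pooled peak. Replicate 2 had 2 peaks there, at ranks 22863 and 29747 of 30000. Both lay in an intron of the neighbouring cell recognition gene Dscam1, and neither had a match in replicate 3. Neither cos nor fu had a reproducible summit, but fu held a promoter peak in both replicates and cos held none.

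By an overlap of at least 1 bp, agreement between the replicates at these genes was like that of the whole lists. Of the 62 replicate 2 peaks, 49 overlapped a replicate 3 peak by at least 1 bp (79.0%, exact Clopper-Pearson 95% interval 66.8 to 88.3), against 77.1% of the whole list. Of the 65 replicate 3 peaks, 51 overlapped a replicate 2 peak (78.5%, 66.5 to 87.7), against 75.4%. These intervals cover counting error only. By gene, the share of replicate 2 peaks that overlapped ran from 0 of 2 at cos and 11 of 18 at ci to 20 of 22 at ptc and 10 of 10 at hh. In the other direction the genes were closer to each other, with 9 of 12 replicate 3 peaks overlapping at ci, 21 of 27 at ptc, 13 of 17 at hh and 7 of 8 at smo. The single fu peak of each replicate overlapped the other. Among the strongest 8015 of replicate 2, 16 of 16 overlapped, against 96.1% of all such peaks. Among those of replicate 3, 15 of 17 did (88.2%, 63.6 to 98.5), against 98.2%. With summits chained where they lay within 100 bp, the 208 peaks of the 4 lists formed 98 sites. Of these, 37 were found in both replicates, 24 in replicate 2 only, 28 in replicate 3 only and 9 in neither. By this stricter rule hh had 6 sites in both, 4 in replicate 2 only and 11 in replicate 3 only. The counts at ptc were 16, 6 and 11, and those at ci 9, 8 and 3. Sites were not counted over the whole lists, so whether these counts differ from the rest cannot be told. Of the 17 reproducible peaks found in both replicates, 15 had ranks within a factor of 2 of each other, and 87.7% did in the whole list. Replicate 2 ranked 9 of them better and replicate 3 ranked 8. Their summits lay 23 bp apart in the median and 79 bp at most, against a median of 24 bp in the whole list.

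**Figure D3:**
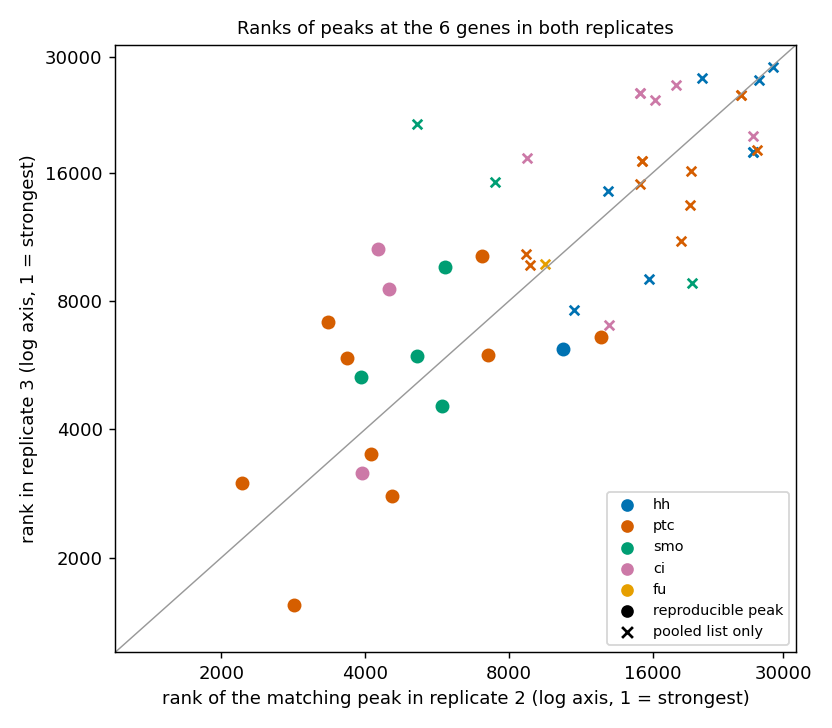
Rank of the matching peak in replicate 2 (horizontal) and replicate 3 (vertical), both on log axes with 1 the strongest, for each reproducible peak (circles) and each other pooled peak (crosses) found in both replicates, coloured by gene. Each replicate peak may match more than 1 pooled peak. The line marks equal ranks, and the ptc peaks reach the best ranks, 2214 in replicate 2 and 1550 in replicate 3.

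Sequence words at the 18 reproducible summits were counted within 50 bp of the summit, on both strands. Of the ETS words, CAGGAAA was at 1.31% of all 8015 summits, CAGGAAG at 0.449%, CCGGAAA at 0.487% and CCGGAAG at 0.237%. Any of these 4 words was at 0 of the 18 summits and at 2.45% of the list. Over whole peaks, which differ in width, 1 of 18 held an ETS word, the ci peak printed above, against 9.58% of the list. The shorter core GGAA, searched after those words had been counted, was at 8 of 18 summits (44.4%) and at 47.8% of the list. Those were 6 at the ptc locus and 1 each at smo and ci. At the summit 2799 bp into ptc, the strongest site, the core occurred 3 times. Numbers of cores per window were not compared with the whole list. The homeodomain core TAATTA was at 2 of 18 summits (11.1%, and 11.02% of the list), 3065 bp upstream of ptc and at 1 Acsl summit. The AP-1 word TGANTCA was at 1 of 18, the ptc promoter summit (2.66% of the list). The other 6 words were at 0 of 18. In the whole list the GATA word AGATAAG was at 1.71% of summits, the promoter word TATCGATA (DRE) at 0.524% and the GAGA word GAGAGAG at 1.71%. The Zelda word CAGGTAG was at 0.287%, the nuclear receptor word AGGTCA at 1.85% and the word TGGGTGGTC, to which Ci binds, at 0.0125%. None of these 12 words, the short core aside, was present at 15 of the 18 summits and at 79.2% of all. A match describes these letters and does not show which factor bound. The G+C content of the windows had a median of 32.2% at the 18 summits, with a range of 15.8 to 50.5%, against 29.7% in the list.

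Some genes on a wider list of the pathway had sites of higher rank than any at the core genes. That list was chosen from textbook knowledge with earlier results of these data known. Of 38 other genes of Hedgehog release, reception, transduction and response, 28 (73.7%) had a reproducible summit in the gene or 5 kb either side, and 53.1% of all protein-coding genes did. The windows of the 38 had a median of 18670.5 bp, which was above the 12164.5 bp of all genes. Most of the 38 were in deciles 8, 9 and 10 of window length. In those deciles 60.3%, 66.4% and 74.7% of genes had a reproducible summit. The 38 had a median of 2 summits, against 1 for all protein-coding genes. The rank of the strongest summit had a median of 4090.5 over hh, ptc, smo and ci, 1619.5 over these 28 genes and 2511 over all genes with a summit. Ranks were not compared at like window length. Windows reached 82792 bp among these 28 genes and 25575 bp among the core genes. At Gprk2, dlp, Cul1, wdb, botv, Cul3, kn, Pka-C1 and CkIalpha, as at smo, that summit was nearest to the TSS of another gene. These shares and medians are descriptions without a test. The strongest peaks of replicate 2 reached 28 of the 38 and those of replicate 3 reached 29.

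Among kinases and other transducers, Gprk2, a kinase that acts on Smoothened, had rank 9, but its summit was nearest to the TSS of PNPase and 584 bp upstream of its own. The casein kinase gene gish had rank 35, with its summit 166 bp upstream of a TSS. The shaggy kinase gene sgg followed with rank 216, 190 bp upstream of a TSS, and dco, a casein kinase gene, with rank 810. For release and reception, the glypican gene dlp had rank 270, at a summit nearest to the TSS of CG43121, and the secreted factor gene shf, whose product shapes ligand spread, had rank 394. At dlp there were 9 summits and at shf 6. The gene rdx, which encodes an adaptor for the breakdown of Ci, had 14 summits, the most of the 38 genes and more than the 10 of ptc, in a window of 74997 bp. Its strongest ranked 380. At nej, the gene of the CBP coactivator, the best rank was 758. Of the response genes, dpp, a target of the pathway in the wing disc and a BMP ligand gene, had rank 69 with its summit 5274 bp downstream of its nearest TSS, and CycE had rank 1116. No peak in any of the 4 lists lay at CycD, a cyclin gene, or at ato, a proneural gene. Their windows were 12855 bp and 11223 bp long, and 69.6% of all protein-coding genes had a pooled peak.

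**Figure D4:**
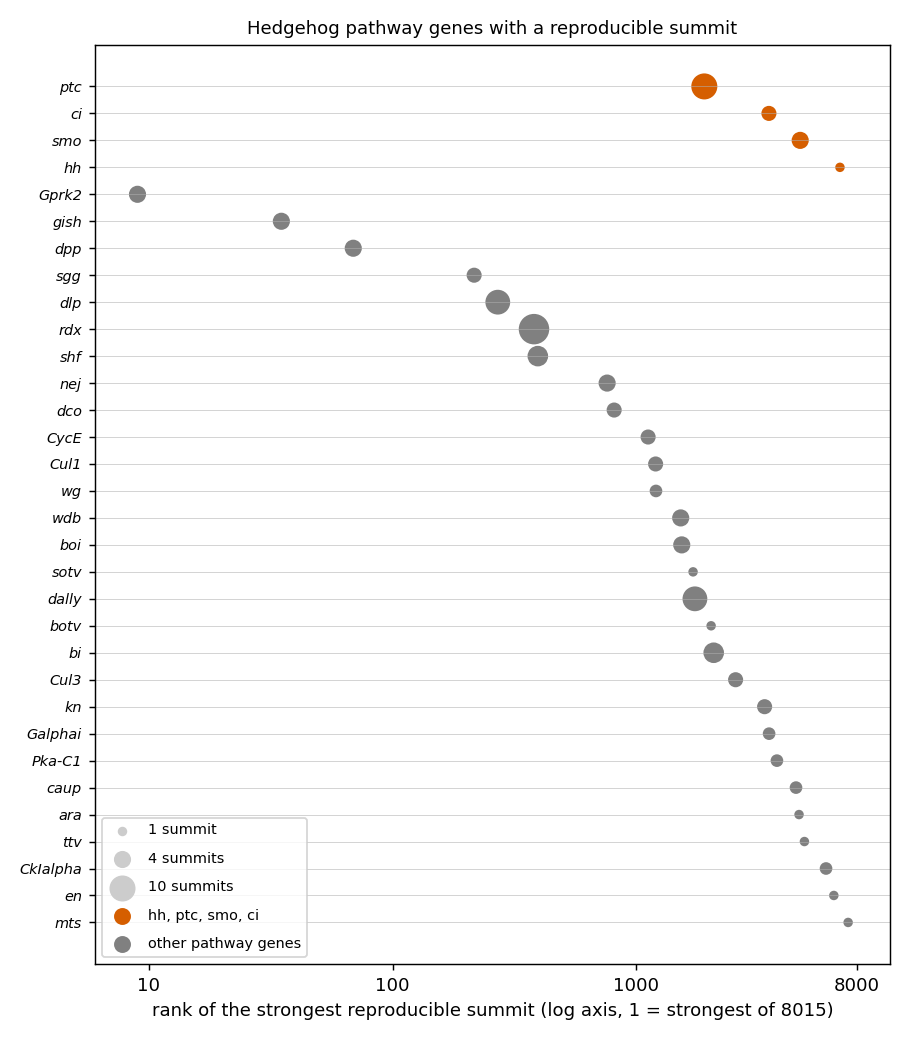
Rank of the strongest reproducible summit (log axis, 1 is the strongest of 8015) for hh, ptc, smo and ci (orange) and the 28 other pathway genes with a summit (grey), with the area of each point proportional to the number of summits. Gprk2 stands at rank 9 and ptc at 1897, and rdx has the most summits, 14, where ptc has 10.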

How the data were processed

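ChIP-seq of Ets96B-eGFP was analysed from 4 peak lists on dm6. Per the deposited file descriptions, each replicate list came from that replicate and a control alignment, the pooled list from both replicates and the control, and the reproducible list from those 3 by irreproducible discovery rate. Which aligner, peak caller and threshold were used is not given in the sources used here. For every peak the authors give a score, called the signal value here, and there is a deposited −log10 q-value, which is the same for all reproducible peaks and was not used. Scores ranked peaks within a list. Read depth is unknown from these lists. The replicate and pooled lists hold 30000 peaks each and the reproducible list 8015, all at pooled ranks of 8015 or better.

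Annotation was Ensembl release 115 and sequence the RefSeq copy of the same assembly, on which 99.9% of 16237 annotated start codons read ATG. A summit within 500 bp of a TSS of a protein-coding gene was called promoter whatever else it lay in, exons came before introns, and non-coding transcripts came last before intergenic sequence. Peaks matched where they overlapped by at least 1 bp, the nearest summit being taken. Windows were sorted into 10 equal groups by length. The assignment was tested on simulated peaks. Python 3.11.15, numpy 2.4.6, pandas 2.3.3 and scipy 1.17.1 were used. Peaks of a list are not replicates and there was no second condition, so no p-value was computed. Reads of the control alignment were not analysed here. All reproducible peaks at the 6 genes are named, then the 3 best-ranked other sites of each gene where there were as many, and of the 38 further genes the 10 best ranked and those with no peak. Of the 38 symbols, 1 was matched through a RefSeq synonym. The 6 genes and the lists were chosen with earlier results of these data known. The tagged gene Ets96B itself had 0 reproducible summits and 1 pooled peak by the same rule.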

Additional observations from a re-analysis of the deposited data

How the results depend on the processing

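Of 92 recomputed values, 62 stayed within 1.5 times the reported count or within its interval, and 30 did not. The 62 include counts of 0 at cos and fu, which a narrower rule cannot change, and counts over all protein-coding genes. In gene bodies alone, ptc had 3 summits and hh, smo and ci had 0, the total was 3, 1 of the 6 genes was occupied, and 2119 protein-coding genes were. With 2 kb either side, hh, ptc, smo and ci had 0, 5, 1 and 1 (total 7), and with 10 kb hh had 4 and cos 1. Occupied were 3 of the 6 genes and 5358 of the 13968 protein-coding genes with 2 kb. With 10 kb, 5 of the 6 and 9510 of the 13968 were. The stronger 4007 peaks gave hh, ptc, smo and ci 0, 3, 0 and 1 (total 4, at 2 genes). They reached 5110 of the 13968 protein-coding genes. With only the nearest start site counted, smo had 0, the total was 11 and 3498 protein-coding genes were occupied. From the strongest peaks of a single replicate, hh had 0 to 2 summits, 0 without replicate 3 and 2 without replicate 2. At that cut its summit counts rest on replicate 3, although its reproducible peak had a weaker match in replicate 2, at rank 10414. The ranges were 8 to 10 at ptc, 3 to 5 at smo and 2 to 3 at ci. The total ran from 16 to 17 and the occupied genes from 3 to 4. With an overlap of at least 50% of both peaks, 58.1% of replicate 2 peaks, 53.8% of replicate 3 peaks and 72.2% of reproducible peaks matched. With summits within 100 bp, the shares of replicate peaks were 59.7% and 56.9%. Under these stricter rules no shares over the whole lists were computed, so they have no background here. Counting distinct intervals changed no count at the 6 genes. A ranking by p-value was not run, since that column holds no values. No paired analysis was possible because there is 1 group. The lists limit what can be seen, since read depth is unknown and weaker binding than the last listed peak leaves no value.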
